A study of Mus musculus with 12 samples.

Results

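The nuclear-encoded subunits of the 5 oxidative phosphorylation complexes were followed in mouse kidney RNA and in universal mouse reference RNA on expression arrays. A gene was a member when a probe set named it alone and its symbol began as those of the subunits do: Nduf followed by A, B, C, S or V and a digit, Sdha to Sdhd, Uqcr, Cox4 to Cox8, or Atp5. This gave 81 genes with 164 probe sets, of 18193 genes with a probe set of their own and 45101 probe sets on the array. Complex I had 35 genes and 73 probe sets, complex II 4 and 9, complex III 8 and 16, complex IV 17 and 35, and complex V 17 and 31. Symbols were used as the probe table gave them, so Ndufa4, which is also known as a subunit of complex IV, was counted in complex I. Cox7b had no probe set naming it alone.

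The series title names a comparison of ways to amplify nanogram amounts of total RNA. The 12 arrays fell into 4 groups of 3: mouse kidney total RNA from Ambion at an input of 10 ng, and universal mouse reference RNA (supplier spelt Strategene) at 10, 3 and 0.3 ng. All groups carried the code pRS in their titles. The labels give no meaning for it, and no strain, age, sex or treatment. The reference is a commercial pool made from mouse cell lines, so it stands for no single tissue, and the kidney RNA was bought as RNA, with the number of animals not given in the sources used here. Nothing states that the 3 arrays of a group came from separate RNA preparations, so the p-values measure the spread between these arrays, which may be technical.

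Oxidative phosphorylation takes electrons from NADH at complex I and from succinate at complex II, passes them through ubiquinone to complex III and by cytochrome c to complex IV, where oxygen is reduced. Complexes I, III and IV pump protons across the inner mitochondrial membrane, and complex V, the ATP synthase, uses that gradient to make ATP. Renal tubule cells are rich in mitochondria because they drive solute transport, and several complex IV subunits have isoforms known for expression in heart and muscle or in testis.

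Signals are linear intensities on a common scale, on which the trimmed mean of each array is 500. Differences are log2 values after adding 3.9, kidney minus reference unless stated, and a difference was called when limma's adjusted p was under 0.05, two-sided, over the 27022 probe sets that passed a filter on low signals. Of the member probe sets 150 passed the filter, of which 4 passed only through the kidney arrays and 4 only through 1 reference group. The other 14 did not pass. A gene is represented by its probe set of highest mean signal, and 77 of the 81 genes had a tested representative. Background was a signal of 33.7, set by control probe sets for bacterial transcripts. Pairs of arrays correlated at r of 0.955 to 0.957 in kidney. For the reference, r was 0.963 to 0.965 (10 ng), 0.942 to 0.947 (3 ng) and 0.827 to 0.863 (0.3 ng). All 11 tested tubule markers of the kidney list rose in kidney, and all 7 tested markers of dividing cells fell. RNA of whole tissue or pooled cells cannot tell fewer cells of a type from less RNA per cell.

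Kidney against reference at the same 10 ng input asks how the tissue differs from the pool of cell lines. Subunit genes were more often higher than lower in kidney: 46 of 77 rose, 3 fell and 28 were not called, with a median difference of 0.47. Of the genes, 27 were called higher without the filter on low signals and 30 with the replicate number as a block. Over all 12820 genes tested, 27.1% were called higher and 35.6% lower, and the median was -0.19. By probe set, 87 of 150 members rose and 7 fell, against 22.9% higher and 37.2% lower of all probe sets, with medians of 0.47 and -0.34. The direction of the members' median did not depend on scaling: it was 0.54 over genes after quantile normalization and 0.72 after centring each array on its median. Centring moved the median of all probe sets to -0.09 and the higher share of all calls from 38.2% to 49.1%, and quantile normalization moved them to -0.19 and 44.1%. Values below are on the deposited scale.

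**Figure D1:**
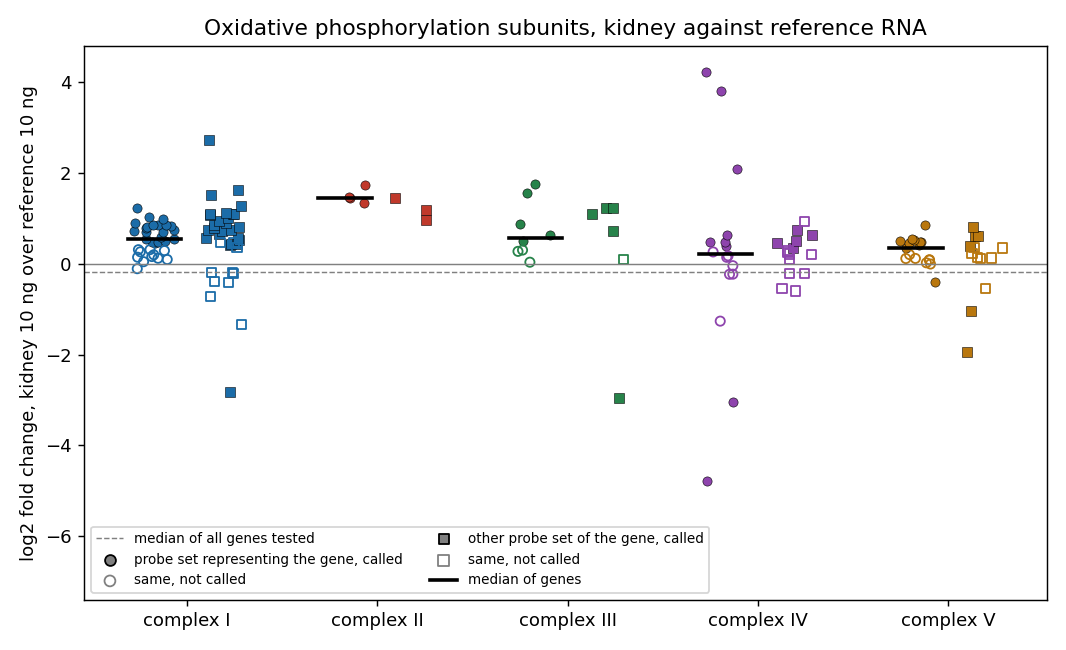
Log2 fold change of every tested member probe set, kidney 10 ng over reference 10 ng, by complex. Circles are the probe sets that represent genes and squares the other probe sets; filled symbols were called, black bars are medians over genes, and the dashed line is the median of all genes tested. All 4 complex II genes lie above 1.3, and complex IV spans -4.78 to 4.24.

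Complex I, the NADH dehydrogenase, had 21 of its 32 tested genes called higher and none called lower, with a median of 0.55. Without the filter 14 were called higher. The largest difference among these genes was that of Ndufs1, the largest iron-sulphur subunit of the electron-carrying arm. Its signals were 3137, 3386 and 3248 in kidney and 1317, 1487 and 1344 in the reference at 10 ng. The groups did not overlap, and the difference was 1.24 ± 0.12 (SE, limma adjusted p = 0.000482). Ndufs4, an accessory subunit of the same arm, had 4279, 4347 and 3690 in kidney and 1907, 2117 and 2022 in the reference. Again every kidney array was above every reference array, by 1.02 ± 0.13 (SE, limma adjusted p = 0.00132). Ndufv1, which binds the flavin that accepts electrons from NADH, had 4603, 4565 and 5542 in kidney and 2961, 2077 and 2407 in the reference. It rose by 0.99 ± 0.18 (SE, limma adjusted p = 0.00512), and its other 2 probe sets rose by 1.07 and 1.27. Ndufb2, a small membrane-arm subunit, rose by 0.89 ± 0.12 (SE, limma adjusted p = 0.00137).

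A group of 6 genes of the conserved catalytic core was looked at together after their values had been seen. Ndufs1, Ndufs3, Ndufs7, Ndufs8, Ndufv1 and Ndufv2 all rose, by 1.24, 0.73, 0.72, 0.85, 0.99 and 0.83. Accessory subunits covered a wider range. Ndufa8 and Ndufa5 each rose by 0.86 and Ndufb10 by 0.71. Ndufa4 differed by 0.05, with 12935, 13694 and 13528 in kidney and 12328, 14939 and 11819 in the reference, so the groups overlapped. By representative probe sets, Ndufa7 was the only tested complex I gene with a value below 0, at -0.11, and was not called. Its 5 probe sets ran from -0.39 to 0.36, with none called. Other probe sets of Ndufa12, Ndufs4, Ndufb2, Ndufa3 and Ndufs8 also had values below 0. The isoform partner of Ndufa4, Ndufa4l2, did not pass the filter: its signals were 35.4, 13.2 and 84.5 in kidney and 11.7, 53.1 and 20.2 in the reference, on both sides of background. Ndufb1 and Ndufb4 did not pass it either.

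Complex II, succinate dehydrogenase, is encoded wholly in the nucleus and also works in the citric acid cycle. All 4 of its genes rose, and so did all 7 of its tested probe sets, with a median over genes of 1.45. Sdha, the flavoprotein that oxidizes succinate, had 7318, 7044 and 6878 in kidney and 2536, 2582 and 2660 in the reference, a rise of 1.45 ± 0.11 (SE, limma adjusted p = 0.000213). Sdhb, the iron-sulphur subunit, had 5248, 5010 and 4823 against 1811, 2142 and 1558, a rise of 1.46 ± 0.16 (SE, limma adjusted p = 0.00069). Kidney and reference arrays were far apart for both genes. Sdhc, a membrane anchor that helps to bind ubiquinone, had 3530, 3512 and 3483 against 1437, 1367 and 1365, a rise of 1.33 ± 0.11 (SE, limma adjusted p = 0.000268). Sdhd, the other anchor, had 7882, 8231 and 8174 against 2988, 1378 and 3433. It rose by 1.74 ± 0.36 (SE, limma adjusted p = 0.00792), and the second reference array was the lowest of its group. A further probe set of Sdhd rose by 1.18 ± 0.13 (SE), with reference signals of 1188, 1421 and 1263 that lay close together.

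The promoter of Sdhd is shown because it was 1 of 2 member promoters to hold the estrogen-related receptor motif searched for, and it held the other 2 motifs as well. It is taken from RefSeq's GRCm38.p6 table, 250 bases before and 50 after the gene's start, from chr9:50603800-50604099 on the minus strand. Capitals mark, in order, matches to the motifs of nuclear respiratory factor 1 (GCGCA and GCGC on either side of 1 free base), the ETS family, which includes GABP (CCGGAAG), and the estrogen-related receptors (TCAAGGTCA), each looked for on both strands. The first is 79 bases before the start, and the last ends 45 bases into the transcript.
Sdhd: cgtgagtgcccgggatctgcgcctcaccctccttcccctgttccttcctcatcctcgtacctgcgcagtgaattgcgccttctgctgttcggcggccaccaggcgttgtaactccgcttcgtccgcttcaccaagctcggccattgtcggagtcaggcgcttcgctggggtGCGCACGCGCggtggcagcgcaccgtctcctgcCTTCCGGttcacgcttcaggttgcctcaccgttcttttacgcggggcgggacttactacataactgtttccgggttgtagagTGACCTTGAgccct

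Of the member genes, 66 had a promoter in that table, and 28 of them, 42.4%, held at least 1 of the motifs. The share was 14.4% of all 27025 genes with a promoter there and 18.9% of the 17491 that code for protein. A gene with several promoters counted when any of them matched. The nuclear respiratory factor 1 motif was in 15 member genes (22.7%, against 5.19% of all and 7.17% of protein-coding). CCGGAAG was in 17 (25.8%, against 9.93% and 12.9%), and TCAAGGTCA in 2 (3.03%, against 0.466% and 0.377%). The median difference between kidney and reference was 0.42 for tested members with the nuclear respiratory factor 1 motif and 0.49 for those without, and 0.46 with CCGGAAG and 0.51 without. A match is a description of the letters and not a site shown to be bound.

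Complex III passes electrons from ubiquinol to cytochrome c. Of its 8 genes 5 rose and none fell, with a median of 0.57. Uqcrfs1, the Rieske iron-sulphur protein, had the largest rise among them. Its signals were 3390, 3530 and 3550 in kidney and 993, 1002 and 1093 in the reference, and the difference was 1.76 ± 0.12 (SE, limma adjusted p = 0.000122). Uqcrc1, a core protein outside the electron path, had 1321, 1186 and 1249 against 419, 511 and 356, a rise of 1.55 ± 0.17 (SE, limma adjusted p = 0.000727). Neither gene's groups overlapped. Its partner core protein Uqcrc2 rose by 0.64 ± 0.14 (SE, limma adjusted p = 0.00987) by its representative and by 1.23 ± 0.12 (SE, limma adjusted p = 0.000428) by its other probe set. Uqcrq, a small ubiquinone-binding subunit, rose by 0.87 ± 0.15 (SE, limma adjusted p = 0.00414), and Uqcr11 by 0.49. The representatives of Uqcrb, Uqcr10 and Uqcrh had values of 0.27, 0.30 and 0.04 and were not called. Other probe sets of Uqcr10 were called higher, by 1.23 and 1.10 (limma adjusted p = 0.0122 and 0.0325), and so was 1 of Uqcrb, by 0.71 (limma adjusted p = 0.00418), while the other of Uqcrh had 0.09 and was not called. Cyc1, the cytochrome c1 of this complex, lies outside the symbol rule and rose by 0.77.

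The promoter of Uqcrc1, from chr9:108936398-108936697 on the plus strand (RefSeq, GRCm38.p6), is shown for its pair of nuclear respiratory factor 1 motifs in capitals. Both lie after the start, from base 6 to 15 and from base 31 to 40.
Uqcrc1: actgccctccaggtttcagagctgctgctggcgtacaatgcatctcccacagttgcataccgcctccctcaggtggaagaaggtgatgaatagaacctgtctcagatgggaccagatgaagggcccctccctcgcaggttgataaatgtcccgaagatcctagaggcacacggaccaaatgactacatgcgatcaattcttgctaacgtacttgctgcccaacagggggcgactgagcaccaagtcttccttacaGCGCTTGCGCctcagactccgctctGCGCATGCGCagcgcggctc

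Complex IV, cytochrome c oxidase, moved in both directions: of 16 tested genes 7 rose, 2 fell and 7 were not called, with a median of 0.22. Without the filter 4 were called higher and 2 lower. Among subunits without a tissue isoform in this set, Cox5a had 9467, 9391 and 9878 in kidney and 6031, 5801 and 6842 in the reference, a rise of 0.62 ± 0.13 (SE, limma adjusted p = 0.00743). Cox6c rose by 0.47. Cox5b was represented by a probe set with a value of 0.17, which was not called. Of its 5 tested probe sets 1 was called higher, and the values ran from -0.54 to 0.34.

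The largest differences were in isoforms of complex IV subunits. Cox6b2, the isoform known from testis, had signals of 490, 621 and 704 in kidney and 16.8, 41.4 and 31.0 in the reference at 10 ng. All kidney arrays were far above the reference arrays, 2 of which were below background. The difference was 4.24 ± 0.32 (SE, limma adjusted p = 0.000196), and 3.91 when background is set as the lowest signal. Its ubiquitous partner Cox6b1 had 9544, 9728 and 9850 in kidney and 7019, 8334 and 6801 in the reference, a rise of 0.40 ± 0.13 (SE, limma adjusted p = 0.0429). That call was lost in 8 of the alternatives tried, among them every fit that left out an array other than reference replicate 2.

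Cox7a1, the heart and muscle isoform of subunit 7a, had 1209, 1265 and 1194 in kidney and 393, 268 and 216 in the reference. It rose by 2.09 ± 0.24 (SE, limma adjusted p = 0.000798). The partner that is expressed broadly, Cox7a2, had 13364, 13701 and 13384 against 14620, 17739 and 15202. Its other probe set had a value of 0.25 and was not called. The representative's value of -0.23 was not called either and became 0.09 after quantile normalization and 0.02 after centring. The related Cox7a2l, which takes part in joining complexes into supercomplexes, had -0.23 as well, was not called, and had 0.01 after centring.

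Cox8b, another heart and muscle isoform, had 130, 176 and 244 in kidney and 10.1, 3.9 and 16.2 in the reference. All 3 reference arrays were below background, so kidney was at least 5.44-fold higher (limma adjusted p = 0.00068). The reference signals at 10 ng of Cox8b, and those of Cox6b2, were all under the filter's cut of 65.4. Neither probe set could therefore pass the filter through that group, which limits what their p-values show. Cox8a had 3818, 3945 and 3714 against 2634, 2978 and 2652, a rise of 0.48 ± 0.12 (SE, limma adjusted p = 0.0174). Of its 3 tested probe sets 2 were called higher, and the values ran from -0.60 to 0.64. The testis isoform Cox8c did not pass the filter, with 8.9, 11.2 and 4.3 in kidney and 79.0, 38.2 and 8.9 in the reference.

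Not every heart and muscle isoform was called. Cox6a2 had 901, 693 and 766 in kidney and 861, 759 and 798 in the reference, overlapping groups with a difference of -0.04 ± 0.15 (SE, limma adjusted p = 0.821). The sign of that value turned after quantile normalization (0.02) and centring (0.20). The other probe set of Cox6a2 had a value of 0.94 and was not called. Its partner Cox6a1 had 0.26 and was not called. Cox4i2, an isoform known from lung and from low oxygen, had 100, 81.2 and 8.0 in kidney and 114, 130 and 89.3 in the reference. The third kidney array was far below the other two, and the value of -1.26 ± 0.85 (SE, limma adjusted p = 0.24) was not called. Cox4i1 had 0.14 and was not called on the deposited scale, but was called higher after quantile normalization (0.43, limma adjusted p = 0.0191) and centring (0.39, limma adjusted p = 0.0488).

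Both complex IV genes that fell were seen through dim probe sets. Cox7b2, an isoform known from testis, had 0.7, 2.7 and 1.7 in kidney and 107, 147 and 204 in the reference, which makes kidney at least 4.55-fold lower (limma adjusted p = 7.55e-05). Cox7c had 24.7, 20.2 and 26.8 in kidney and 185, 257 and 238 in the reference, at least 6.72-fold lower (limma adjusted p = 8.8e-05). Every kidney array of these genes was below background, so both probe sets passed the filter only through reference groups. The other probe set of Cox7c did not pass the filter, and the Cox7c locus overlaps the gene Gm22574 in RefSeq, so which transcript these probe sets read was not tested.

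**Figure D2:**
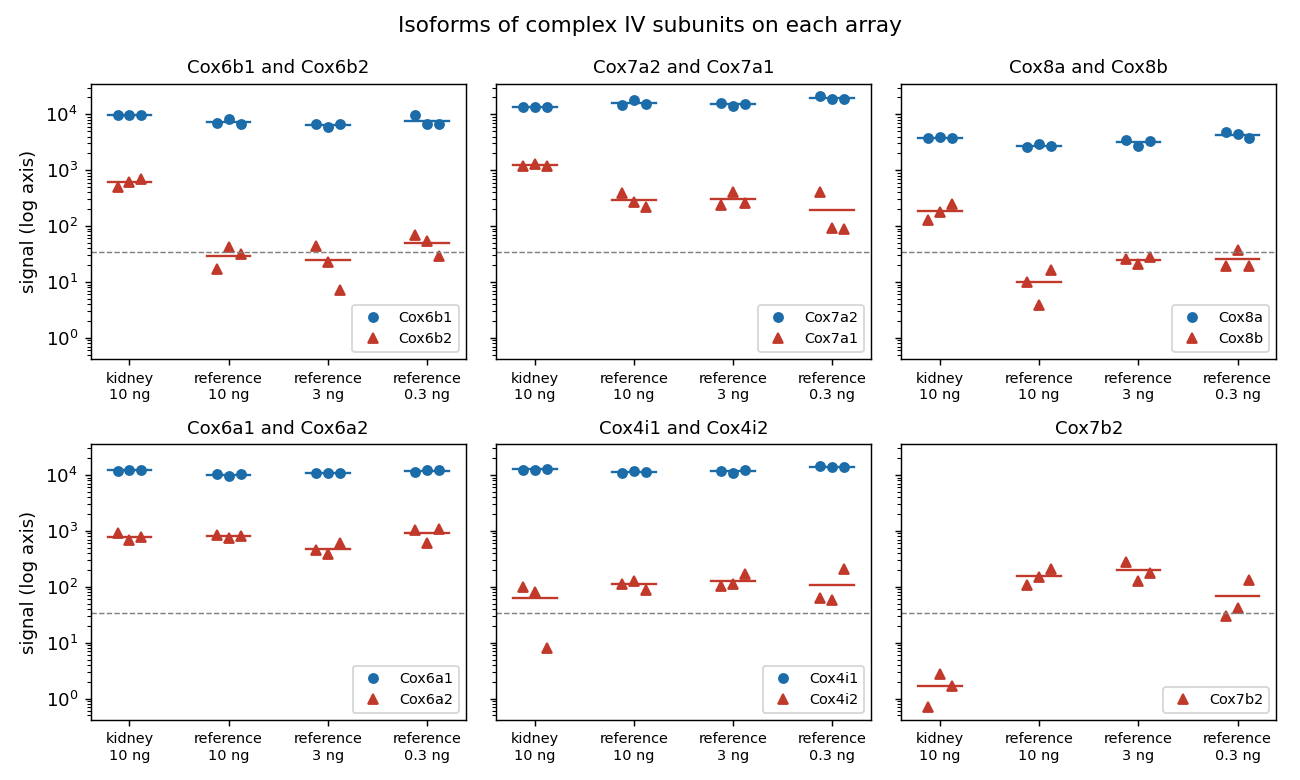
Signal of isoforms of complex IV subunits on each of the 12 arrays, on a log axis; points are arrays, short bars group means, and the dashed line background at 33.7. Cox6b2, Cox7a1 and Cox8b are higher on all kidney arrays than on all reference arrays, while Cox7b2 is below background on every kidney array.

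As ratios within arrays, Cox7a1 over Cox7a2 was higher in kidney by 2.32 on the log2 scale. Cox6b2 over Cox6b1 was higher by 3.51 with background as the floor. Cox8b over Cox8a was higher by at least 1.79, computed with background in place of the reference signals of Cox8b. Without a floor these last values were 3.84 and 3.33 and depended on the pseudocount. In each of these the groups did not overlap, and the two-sided exact permutation p was 0.1, the smallest that 3 against 3 arrays can give. Cox6a2 over Cox6a1 differed by -0.30, also with p = 0.1 by the exact test, and Cox4i2 over Cox4i1 by -1.41 with an exact p of 0.2, or by -0.85 with background as the floor. No ratio is given for Cox8c or Ndufa4l2, which did not pass the filter and had signals under background in both groups. For Cox7b2 none could be formed.

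Markers of other tissues also differed between these RNAs. Of 8 tested markers of skeletal and heart muscle 4 rose and 4 fell: Myh6, Actc1, Tnni3 and Mb were higher in kidney, and Tnnt2, Tnnt3, Tnni2 and Mylpf lower. Myh6, the heart myosin, had 243, 1242 and 376 in kidney and was below background on all reference arrays at 10 ng. The summed signal of the 14 muscle markers was 2429 to 3190 on the kidney arrays and 1887 to 1987 on the reference arrays at 10 ng, and Myh2, Myh4, Tnnt3 and Tnni2 were below background on every kidney array. Of the 9 testis germ cell markers, Tnp1, Ldhc, Pgk2 and Acr were below background on every kidney array, and the summed signal was 365 to 616 in kidney and 370 to 466 in the reference. Of 2 tested testis markers Tcp11 rose. The fat markers Fabp4 and Adipoq rose, with a summed signal of 8062 to 8619 in kidney and 334 to 464 in the reference. Of 3 tested brown fat markers Ppargc1a and Ucp1 rose and Dio2 fell. That list summed to 6944 to 7361 in kidney and 764 to 1120 in the reference, nearly all of it Ppargc1a, which had 6768 to 7153 in kidney and is not particular to brown fat. The mean kidney signals of the others were 75.2 for Ucp1, 64.0 for Cidea, 24.4 for Dio2 and 22.2 for Elovl3, and those of Dio2 and Elovl3 were below background. The red blood cell markers Hbb-b2 and Alas2 rose, with sums of 8859 to 9127 and 11.4 to 28.0, and Hba-a1 was below background on every kidney array. The part of these other cells in the values of Cox7a1, Cox8b and Cox6b2 was not tested.

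The promoters of Cox6b1 and Cox6b2, and of Cox8a and Cox8b, are shown as isoform pairs whose ratio differed between the RNAs (RefSeq, GRCm38.p6, all on the minus strand). They come from chr7:30626065-30626364, chr7:4753045-4753344, chr19:7217567-7217866 and chr7:140900397-140900696. Capitals mark CCGGAAG or its reverse complement, which was found once in Cox6b1 and in 2 places in Cox8a. The other motifs were in none of these 4 windows, and none of the 3 motifs was in the windows of Cox6b2, Cox8b, Cox7a1 or Cox7a2. The window of Cox7a2 lies inside the gene's RefSeq range, so the start used for it is not the outermost one.
Cox6b1: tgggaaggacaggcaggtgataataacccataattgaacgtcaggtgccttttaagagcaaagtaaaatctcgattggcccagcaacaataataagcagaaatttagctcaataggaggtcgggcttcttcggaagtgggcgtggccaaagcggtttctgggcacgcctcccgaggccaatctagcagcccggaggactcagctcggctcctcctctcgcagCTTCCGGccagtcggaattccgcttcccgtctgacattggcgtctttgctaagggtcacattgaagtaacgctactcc
Cox6b2: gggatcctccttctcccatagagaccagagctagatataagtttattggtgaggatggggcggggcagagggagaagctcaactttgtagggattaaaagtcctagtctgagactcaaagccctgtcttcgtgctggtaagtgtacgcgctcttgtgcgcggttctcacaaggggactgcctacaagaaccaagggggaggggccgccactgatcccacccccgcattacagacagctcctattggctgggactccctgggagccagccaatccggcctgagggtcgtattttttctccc
Cox8a: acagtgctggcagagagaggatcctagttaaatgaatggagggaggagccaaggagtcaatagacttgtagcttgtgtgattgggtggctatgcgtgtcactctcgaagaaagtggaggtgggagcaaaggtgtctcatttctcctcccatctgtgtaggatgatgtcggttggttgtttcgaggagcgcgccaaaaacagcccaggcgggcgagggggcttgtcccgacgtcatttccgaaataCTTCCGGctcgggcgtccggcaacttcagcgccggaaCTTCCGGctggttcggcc
Cox8b: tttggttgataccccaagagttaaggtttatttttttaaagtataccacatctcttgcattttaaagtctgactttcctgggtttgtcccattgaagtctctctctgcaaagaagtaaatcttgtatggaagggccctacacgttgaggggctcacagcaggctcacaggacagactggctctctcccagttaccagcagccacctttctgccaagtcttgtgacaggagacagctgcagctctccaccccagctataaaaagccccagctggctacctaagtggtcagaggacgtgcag

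Complex V, the ATP synthase, had 9 of 17 genes called higher and 1 lower, with a median of 0.35. Without the filter 1 was called higher and none lower. Atp5pb, a subunit of the peripheral stalk, had 7854, 8314 and 7808 in kidney and 4429, 3966 and 4870 in the reference, a rise of 0.86 ± 0.13 (SE, limma adjusted p = 0.00271). Atp5b, the catalytic beta subunit, had 9485, 9928 and 9255 against 6635, 6902 and 6538. Its groups did not overlap, and it rose by 0.51 ± 0.11 (SE, limma adjusted p = 0.0105). Atp5md rose by 0.50 ± 0.15 (SE) and Atp5c1, the gamma subunit of the central stalk, by 0.48 ± 0.14 (SE). The calls of Atp5b, Atp5c1, Atp5md and Atp5g1 were lost without the filter (limma adjusted p = 0.0516, 0.0905, 0.0916 and 0.0584), and that of Atp5pb was kept in every alternative. Atp5d rose by 0.47, Atp5j by 0.46, Atp5a1, the alpha subunit, by 0.42 and Atp5o by 0.35.

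The membrane ring of the ATP synthase is built from a subunit c that 3 genes, Atp5g1, Atp5g2 and Atp5g3, encode with the same mature protein and different import sequences. Atp5g1 had 9029, 9249 and 9703 in kidney and 6154, 7220 and 5827 in the reference, a rise of 0.55 ± 0.14 (SE, limma adjusted p = 0.0158). Atp5g2 had 7496, 7882 and 8130 in kidney and 9645, 11536 and 9720 in the reference. It was the only complex V gene called lower, by -0.39 ± 0.13 (SE, limma adjusted p = 0.0459). Its other tested probe set had 45.6, 26.2 and 28.9 in kidney and 79.9, 79.4 and 56.7 in the reference and was called lower too, by -1.04 ± 0.25 (SE, limma adjusted p = 0.0141), or -0.87 with background as the floor. The call of the representative was lost in 11 of the alternatives, among them quantile normalization (-0.34, limma adjusted p = 0.0548), centring (-0.15, limma adjusted p = 0.438) and every fit that left out 1 array (limma adjusted p from 0.0723 to 0.118). Atp5g3 had 11103, 11621 and 11074 against 10580, 10665 and 9906, and its value of 0.12 was not called. Ratios between these genes were added after their values were seen: Atp5g2 over Atp5g1 differed by -0.94, Atp5g2 over Atp5g3 by -0.51 and Atp5g1 over Atp5g3 by 0.43. In each the groups did not overlap, with an exact permutation p of 0.1.

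The promoter of Atp5g3 is the other member promoter with TCAAGGTCA, here as its reverse complement from 52 to 44 bases before the start, and it also holds the nuclear respiratory factor 1 motif after the start. It comes from chr2:73911277-73911576 on the minus strand (RefSeq, GRCm38.p6). This window lies inside the gene's RefSeq range, which runs on to 73912464, so the start used is not the outermost one. Sdhd and Atp5g3, the pair with that motif, differed in their values, at 1.74 and 0.12.
Atp5g3: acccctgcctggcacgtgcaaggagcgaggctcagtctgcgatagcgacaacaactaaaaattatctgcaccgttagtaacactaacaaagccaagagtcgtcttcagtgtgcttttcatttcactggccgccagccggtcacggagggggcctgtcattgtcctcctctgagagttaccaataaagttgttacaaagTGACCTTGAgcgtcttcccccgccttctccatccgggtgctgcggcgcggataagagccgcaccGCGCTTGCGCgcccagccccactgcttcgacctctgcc

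Probe sets of a gene mostly pointed the same way. Of 46 genes with more than 1 tested probe set, 28 had more than 1 called, and 18 had all of them called higher. The 18 include Ndufa10, whose dimmer probe set passed the filter only through the kidney arrays, where it was high. These counts were not made for the other genes of the array, so no share stands beside them. Opposite calls were found in 3 genes, and in each the lower call came from a dimmer probe set. Atp5c1 had 270, 265 and 199 in kidney and 1110, 954 and 803 in the reference by its second probe set, which fell by 1.95 ± 0.20 (SE, limma adjusted p = 0.00052). Uqcrq had 34.1, 42.0 and 3.1 against 203, 140 and 186, a value of -2.95 ± 0.74 (SE, limma adjusted p = 0.0161), or -2.15 with background as the floor. The Uqcrq locus overlaps Gdf9 in RefSeq. Ndufa12 had 3.1, 2.0 and 50.6 against 119, 77.7 and 76.7, a value of -2.83 ± 0.88 (SE, limma adjusted p = 0.0342), or -1.13 with that floor, while its other 3 probe sets rose by 0.47 to 0.57. Against the reference at 3 ng, a dim probe set of Ndufb2 was also called lower, with 237, 172 and 304 in kidney and 562, 664 and 341 in the reference. Which transcripts these probe sets read was not tested.

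Among bright members the difference was smaller where the signal was higher. Signals of the reference at 3 ng were used to order the 118 member probe sets above 1000. Those arrays do not enter this fold change, but they carry the same reference RNA that kidney is compared with. The order and the fold change are therefore not independent, and the part of this in the values was not tested. Of 35 members with signals of 1000 to 3000, 31 were called higher, with a median of 0.99. From 3000 to 6000 it was 26 of 34 (median 0.53), from 6000 to 9000 it was 16 of 33 (median 0.34), and above 9000 none of 16 (median 0.11). All probe sets in the same ranges were called higher in 19.5%, 17.4%, 11% and 0.593%. Spearman's rho between signal and fold change was -0.77 over the 118 member probe sets and 0.02 over all 6500 above 1000, as a description across probe sets that share arrays. The order held within genes in part: in 24 of the 36 genes with 2 or more such probe sets, the brightest had the smallest fold change. A probe set's signal depends on its probes as well as on its transcript, and the part of signal level itself in these values was not tested.

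**Figure D3:**
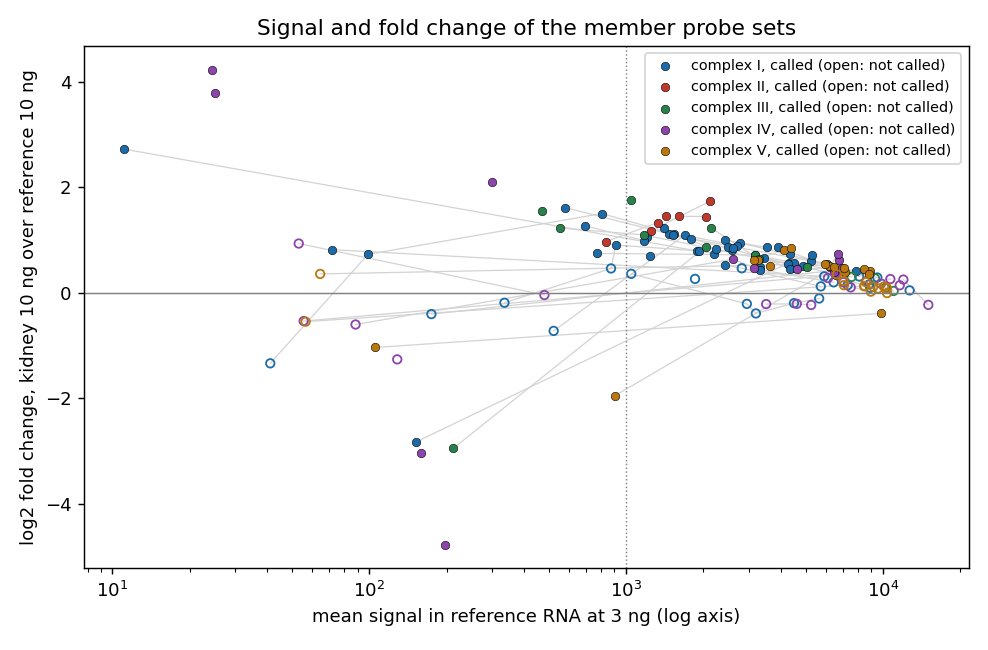
Mean signal in the reference at 3 ng (log axis) against the log2 fold change of kidney 10 ng over reference 10 ng, for the 150 tested member probe sets, coloured by complex; filled points were called, and grey lines join probe sets of 1 gene. To the right of the dotted line at 1000, values fall from a median of 0.99 below 3000 to 0.11 above 9000.

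Kidney at 10 ng was also set against the reference at lower inputs, where tissue and input change together and the kidney arrays are the same ones. Against 3 ng, 48 of 77 genes were called higher and 2 lower (26.4% and 31.4% of all genes), and 95 of 150 probe sets higher and 7 lower (21.8% and 34.9% of all). Against 0.3 ng, 19 genes were called higher and 2 lower (20.9% and 16.7% of all genes), and 42 probe sets higher and 3 lower (18.1% and 16.7% of all). Leaving out kidney replicate 1, 2 or 3 brought the 42 down to 14, 13 and 14, and the 3 down to 1 each time. The median over member genes was 0.59 against 3 ng and 0.36 against 0.3 ng, beside -0.17 and 0.05 over all genes. Complex II stood highest at each input, with medians over its 4 genes of 1.45, 1.81 and 1.99 against 10, 3 and 0.3 ng, and all 4 genes were called each time. The medians of complex I were 0.55, 0.66 and 0.56, and those of complex III 0.57, 0.78 and 0.50. Complex IV had 0.22, 0.27 and -0.08, and complex V 0.35, 0.27 and 0.09. Cox6b2, Cox7a1 and Cox8b were called higher and Cox7b2 lower at all 3 inputs. The representative of Cox6a2 was called only against 3 ng, where it was higher by 0.72 ± 0.22 (SE, limma adjusted p = 0.0341). There the reference had 455, 383 and 605. Atp5g2 was called lower against 10 and 0.3 ng, and its value of -0.32 against 3 ng was not called. Cox7c was called lower against 10 and 3 ng. Against 0.3 ng it was not called, with reference signals of 105, 34.6 and 3.3.

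Within the reference RNA, lowering the input tests how stably the subunits were measured. Between 3 and 10 ng no member was called in either direction, as was no probe set of the array (0% of all, both ways). Most members still had values below 0. Values above 0 were found in 18 of 77 genes (23.4%), with a median of -0.10, beside 42.9% and -0.05 of all genes. By probe set it was 37 of 150 (24.7%), with a median of -0.10, beside 48.5% and -0.01 of all. The part of this shift in the differences between kidney and the 3 ng reference was not tested. At an unadjusted limma p under 0.05 there were 13 of 150 member probe sets, and 2736 (10.1%) of all. All 3 probe sets of Ndufv1 were among the 13. The representative one had 2961, 2077 and 2407 at 10 ng and 1119, 1042 and 1373 at 3 ng, groups that did not overlap, with a value of -1.07 (3 minus 10 ng, limma adjusted p = 0.294). The others had -0.89 and -0.44. Ndufv1 differed from kidney by 0.99 at 10 ng and by 2.06 at 3 ng.

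Between 0.3 and 10 ng no member probe set was called either, against 0.0333% of all called higher and 0.762% lower (0.0078% and 0.546% of all genes). An unadjusted limma p under 0.05 was reached by 10 of 150 members (6.67%) and by 15.5% of all. The members' median was 0.08 over genes, while that of all genes was -0.21. Values above 0 were found in 14 of 17 genes of complex V, with a median of 0.26, and in 0 of 4 of complex II, with a median of -0.45, beside 35.9% of all genes. By probe set, 3 of 7 of complex II were above 0, with a median of -0.13. The difference between the complexes was not tested. Atp5k had the highest value of complex V, 0.52, with 8327, 10005 and 8382 at 10 ng and 13270, 13977 and 11147 at 0.3 ng. Sdha had the lowest of complex II, -0.75, with 962, 2387 and 1585 at 0.3 ng. None of these single values passed the test.

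**Figure D4:**
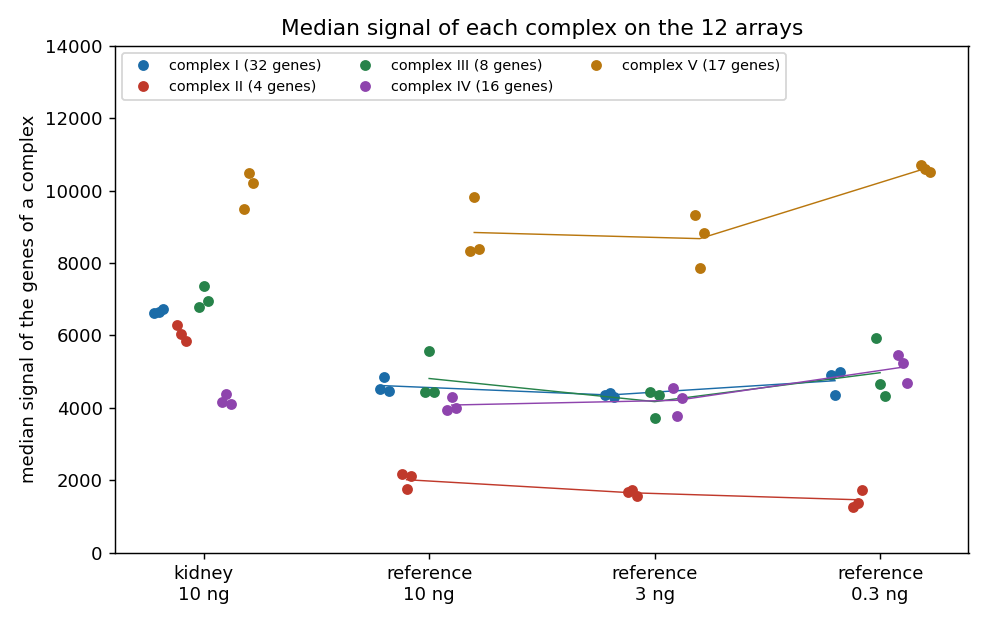
Median signal of the tested genes of each complex on every array, in the 4 groups; points are the 3 arrays, and lines join the means of the reference groups. Complex II has medians of 5851 to 6283 on the kidney arrays and 1760 to 2173 on the reference arrays at 10 ng.

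The members varied little between arrays of a group. The median SD of log2 signals over member probe sets was 0.059 in kidney and 0.149, 0.154 and 0.197 in the reference as its input fell, against 0.256, 0.242, 0.308 and 0.687 over all tested probe sets. Members are bright, which bears on this comparison: above a signal of 1000 the medians were 0.053, 0.140, 0.129 and 0.165 for members and 0.082, 0.125, 0.142 and 0.320 for all. At 0.3 ng single genes still scattered. Sdhd had 1194, 1619 and 2164, Cox7a1 had 410, 93.2 and 89.1, and Ndufs1 had 1257, 607 and 2144.

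Other genes of the pathway were counted in kidney against reference at 10 ng, each by its representative probe set. The counts stand beside 27.1% called higher and 35.6% called lower of all genes tested. Of 43 tested assembly factors 19 rose and 2 fell, with a median of 0.42. Ecsit and Acad9, which help to build complex I, rose by 1.43 and 1.33. Acad9 was not called against the reference at 3 ng (0.18) or 0.3 ng (2.89). Its reference means were 364, 824 and 257 as the input fell. Coa7, a complex IV assembly factor, rose by 1.40, and Uqcc1, which serves complex III, by 1.28. Ecsit and Coa7 were called higher against 3 ng and not against 0.3 ng, and Uqcc1 against both. Ttc19 and Uqcc2, both of which also serve complex III, had values of -3.23 and -0.94 and fell. Uqcc2 was not called against the reference at 3 ng (0.12) or 0.3 ng (0.33), with reference means of 4592, 2233 and 2146 as the input fell. Ttc19 was called lower against 3 ng too (-3.62) and not against 0.3 ng (-1.43). Of 18 electron carriers and enzymes of ubiquinone synthesis 11 rose and none fell, with a median of 0.70. Coq4 and Coq9 of ubiquinone synthesis rose by 1.72 and 1.53. Etfb and Etfdh, which bring electrons from fatty acid oxidation to ubiquinone, rose by 1.60 and 1.48, and cytochrome c, Cycs, by 0.90. Of 8 tested genes for the ATP synthase inhibitor, the carriers and the uncoupling proteins 4 rose. They were the adenine nucleotide carrier Slc25a5 (0.82), the inhibitor Atpif1 (0.74), the phosphate carrier Slc25a3 (0.44) and Ucp1 (0.97), the last with a mean of 75.2 in kidney.

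Of 14 tested regulators of these genes 5 were called higher and 5 lower, beside 27.1% and 35.6% of all genes. Against the reference at 3 ng the counts were 3 and 2, and against 0.3 ng 4 and 1. Ppargc1a, a coactivator of mitochondrial genes, had 7022, 7153 and 6768 in kidney and 708, 934 and 608 in the reference, a rise of 3.23 ± 0.19 (SE, limma adjusted p = 7.7e-05). The estrogen-related receptor Esrrg had 7382, 7480 and 7366 in kidney and 62.3, 32.0 and 20.7 in the reference, with a rise of 7.58 ± 0.36 (SE, limma adjusted p = 4.2e-05), or 7.35 with background as the floor. Esrrb was below background on every reference array at 10 ng and at least 19.0-fold higher in kidney. Tfb2m and Ppargc1b also rose, by 1.17 and 0.55. Pprc1 and Nrf1, a coactivator and a transcription factor of the same system, had values of -2.85 and -1.79 and fell, as did Gabpb1 (-1.02), Tfb1m (-0.60) and Gabpa (-0.51). Pprc1 was also called lower against 3 and 0.3 ng, and Gabpb1 against 3 ng only. Nrf1, Tfb1m and Gabpa were called against neither, and had -0.30, 0.46 and 0.10 against 0.3 ng. Among those that rose, Esrrg and Esrrb were called higher against both, Ppargc1a only against 3 ng, Tfb2m only against 0.3 ng and Ppargc1b against neither. No probe set carried the symbol of a mitochondrially encoded subunit, so those were not analysed here.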

How the data were processed

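The deposited values were linear intensities, 1 per probe set and array, which the authors had brought to a common scale: the values show a 2% trimmed mean of 500 on every array. How probes were summarised, corrected for background, amplified and labelled is not given in the sources used here. Groups, inputs and replicate numbers came from the sample titles. Of 45101 probe sets 64 controls were left out, and the filter kept the 27022 whose highest group mean, taken on log2 values, exceeded the 40th percentile (65.4 as a signal). The pseudocount of 3.9 is the 10th percentile of positive values, and a log2 fold change on that scale understates the change of dim probe sets.

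The tests used limma 3.58.1 (lmFit, then eBayes; R 4.3.3), with only the 6 arrays of the 2 groups compared in a fit and Benjamini-Hochberg adjustment over all tested probe sets; the fit was tested on simulated data. It takes 1 spread for both groups, which the 0.3 ng arrays do not share. The input comparisons share the reference 10 ng arrays, and the kidney comparisons the kidney arrays. Isoform ratios were tested by exact permutation with scipy 1.17.1. Where every array of the dimmer group was below background (33.7, which 95% of the signals of 27 Bacillus control probe sets do not exceed), the text gives a lower bound of the fold, computed against it. Genes were named by a rule: up to 4 of the largest called changes each way in a complex, all of complex II, all called lower, the isoform pairs, the Atp5g genes and Cox7a2l, genes with opposite calls, and up to 4 called members of each other list; members named beyond it, as examples or to complete a group, were chosen after their values were seen. The members and lists were chosen with earlier results of these data known. RefSeq promoters (GRCm38.p6) were matched by gene. Alternatives were another pseudocount, other filters, quantile normalization, median centring, all arrays in 1 fit, an intensity trend, the replicate number as a block, leaving out each array, and other choices of probe set; background as the floor of the isoform ratios was added after the data were seen. Replicate numbers did not pair the arrays, as deviations of same-numbered arrays correlated at -0.0629 to 0.0159 over 18 pairs. With arrays, their number limits the precision.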

Additional observations from a re-analysis of the deposited data

How the results depend on the processing

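Of 27 called named genes, 19 kept their call and direction under every alternative, and 0 reversed. Calls were lost in at least 1 alternative by Ndufa12, Cox6b1, Cox8a, Atp5b, Atp5c1, Atp5g1, Atp5g2 and Atp5md. For kidney against reference 10 ng, member probe sets called higher numbered 87, 57 without the filter, and 62 to 87 with 1 array left out. Those called lower numbered 7, 11 with an intensity trend, and 4 to 8 with 1 array left out, the 4 being without reference replicate 1. Genes called higher numbered 46, 27 without the filter, 30 with the replicate block and 31 to 46 with 1 array left out. Genes called lower numbered 3, 5 with the trend and 2 with any 1 array left out. Against 3 ng, 95 probe sets were higher, 62 without the filter, 62 with the replicate block, and 68 to 85 with 1 array left out, while 7 were lower, 11 with the trend and 5 to 8 with 1 array left out. Against 0.3 ng, 42 were higher, 21 without the filter, 25 after centring, 69 with the trend, 18 with the replicate block and 13 to 46 with 1 array left out. Those lower numbered 3, 1 without the filter, 6 after centring, 10 with all arrays in 1 fit, 16 with the trend and 1 to 4 with 1 array left out. For reference 0.3 against 10 ng the 0 calls became 1 higher and 2 lower with all arrays in 1 fit, 1 lower with a pseudocount of 16, and 0 to 1 lower with 1 array left out (higher, 0 throughout). For 3 against 10 ng the count was 0 in every alternative. Without the filter more probe sets are tested and also enter the limma fit. The cause of the changed counts was not tested for any setting. The replicate numbers do not pair the arrays, and the block moved no other count past 1.5 times.

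The ratio of Cox6a2 to Cox6a1 (-0.30) was -0.52 after quantile normalization. With a pseudocount of 16, that of Cox6b2 to Cox6b1 (3.84) was 3.39 and that of Cox8b to Cox8a (3.33) was 2.45. With background as the floor, chosen after seeing the data, the last was 1.79. With 1 array left out the ranges were -1.98 to -0.38 for Cox4i2, -0.43 to -0.20 for Cox6a2, 3.55 to 3.996 for Cox6b2, 2.16 to 2.61 for Cox7a1 and 2.90 to 3.67 for Cox8b. Uncalled genes whose sign turned were Ndufa4 (-0.020 without reference replicate 3, and -0.020 to 0.15 over all fits that left out 1 array), Cox6a2 (0.015 after quantile normalization, 0.20 after centring, 0.044 without kidney replicate 2, 0.0067 without reference replicate 1, and -0.14 to 0.044 over all fits that left out 1 array), Cox7a2 (0.093 and 0.016 after quantile normalization and centring) and Cox7a2l (0.014 after centring). Signals under background give bounds only, and 3 arrays a group limit all tests.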

Other observations

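Probe sets that name a subunit gene together with another gene were left out of the counts, and 9 of them carry a symbol of the 5 complexes. The brightest of these in kidney named the Ndufb4 family. It had 10030, 10187 and 10402 in kidney and 6075, 6643 and 6254 in the reference at 10 ng, a rise of 0.69 ± 0.11 (SE, limma adjusted p = 0.00353), and another probe set of that family rose by 1.01 ± 0.13 (SE, limma adjusted p = 0.00133). A probe set naming Ndufa11 and Ndufa11b rose by 0.75, and one naming Ndufs6 and Ndufs6b rose by 0.70. One naming Ndufs5 and its pseudogene had 3925, 4146 and 3655 in kidney and 3575, 3708 and 3213 in the reference and was not called. Genes that share a probe set cannot be told apart by it. Ndufs5 also had a probe set naming it alone, with a value of 0.26 that was not called, and that of Ndufb4 did not pass the filter.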
